A study of Mus musculus with 20 samples.

Results

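The genes described are 8 mouse genes of meiotic crossover designation and resolution, chosen by name for their known function. The rule uses no measured value, but the choice was made with earlier results of these data known. The 8 genes are Msh4, Msh5, Hfm1, Rnf212, Ccnb1ip1 (also known as Hei10), Cntd1, Mlh3 and Exo1. The deposited expression table holds 23235 genes and lists 7 of the 8; it has no row for Rnf212 under that symbol or a RefSeq synonym. All 7 listed genes were among the 12956 genes tested.

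Crossovers are made in meiosis when a few of the many programmed DNA breaks are repaired by reciprocal exchange between homologous chromosomes. Msh4 and Msh5 form the MutSgamma clamp that stabilises recombination intermediates, and Hfm1 is a helicase that acts on the same intermediates. Rnf212, Ccnb1ip1 and Cntd1 govern which intermediates keep their crossover factors and are designated as crossovers, during pachytene. Mlh3 is the endonuclease subunit of MutLgamma, which resolves the designated intermediates, and Exo1 is an exonuclease that assists this step. Cxxc1 encodes a CpG-binding subunit of a histone H3K4 methyltransferase complex, and the study's title concerns the H3K4me3 it places and crossover formation.

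The RNA came from testes of adult male mice of C57BL/6J background. Pachytene spermatocytes, diplotene spermatocytes and meiosis II cells were each sorted from WT and from Cxxc1-null males, with no further treatment named, which gave 6 groups of 2 libraries and 500 sorted cells per library. The means of deleting Cxxc1, and the cells in which it acts, are not given. Nothing in the labels ties the libraries of a group to separate animals, so the p-values measure only the spread between libraries. Values are FPKM, a level scaled for transcript length and for library size, and no library depth is given in the sources used here.

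Cxxc1 itself was lower in both null libraries than in both WT libraries at every stage. It stood at 11.7 and 17.3 FPKM in WT against 9.19 and 9.57 in null pachytene cells, at 13.7 and 17.6 against 9.57 and 8.29 in diplotene, and at 12.5 and 12.8 against 3.10 and 2.02 in meiosis II, so transcript remained in every null library. Each library had 9838 to 11624 genes at 1 FPKM or more, and the 2 libraries of a group correlated at r = 0.957 to 0.976 across genes. All 9 spermatocyte markers reached a mean of 1 FPKM in every group. The 8 round spermatid markers summed to 1390 to 2210 FPKM in pachytene, 160 to 794 in diplotene, and 7230 to 10200 in WT and 2010 to 4270 in null meiosis II libraries. In meiosis II the sum was carried by Prm1 (mean 3000 in WT, 668 in null), Prm2 (1780, 379), Tnp1 (1470, 517) and Tnp2 (1440, 445). Tssk6, at a lower level, also had a lower mean in null cells (36.2, 10.7). Acrv1 (378, 334) was close, and Spaca1 (443, 545) and Tssk1 (188, 243) had higher means in null cells.

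Because Cxxc1 binds unmethylated CpG, the promoters are shown for the pair of genes that passed a genotype test, Mlh3 and Msh4, with every CG in capitals. RefSeq windows of 250 bases before to 50 after an annotated start (build GRCm38.p6, which is not the mm9 build named in the submitters' processing notes) were matched for 7 of the 8 genes; Exo1 had no entry. Both are on the minus strand and are written 5′ to 3′. The Mlh3 window is chr12:85270550-85270849 and the Msh4 window is chr3:153904842-153905141.
Mlh3: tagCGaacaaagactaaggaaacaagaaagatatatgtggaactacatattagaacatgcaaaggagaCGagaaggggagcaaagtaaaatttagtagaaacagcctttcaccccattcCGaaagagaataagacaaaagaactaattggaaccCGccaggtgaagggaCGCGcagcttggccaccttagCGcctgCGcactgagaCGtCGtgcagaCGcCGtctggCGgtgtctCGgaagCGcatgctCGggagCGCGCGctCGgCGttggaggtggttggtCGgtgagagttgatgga
Msh4: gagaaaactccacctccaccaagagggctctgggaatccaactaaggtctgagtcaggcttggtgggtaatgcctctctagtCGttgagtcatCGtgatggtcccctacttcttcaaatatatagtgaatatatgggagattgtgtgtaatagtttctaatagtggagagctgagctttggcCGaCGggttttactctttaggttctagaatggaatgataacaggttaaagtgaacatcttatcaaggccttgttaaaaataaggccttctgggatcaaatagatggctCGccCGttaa
The Mlh3 window holds 22 CpG and the Msh4 window 6. Over all 32851 windows of this length the median was 7, with quartiles of 3 and 20. The other genes had 12 (Cntd1), 13 (Ccnb1ip1), 22 (Rnf212), 27 (Msh5) and 41 (Hfm1), and a second annotated Mlh3 start had 21. The Msh4 start lies 1247 bases inside the gene's outermost annotated base, and those of Hfm1 and Msh5 lie 822 and 375 bases inside theirs. Whether these cells use the annotated starts was not checked. The motif CNCCTCAG of the meiotic entry factors STRA8 and MEIOSIN, searched on both strands, was found in the Msh5 window (1 match) and the Hfm1 window (2 matches), and in 7.94% of all windows. With G at its N the motif itself contains a CG. These counts were made after expression values had been seen and are descriptions without a test.

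**Figure D1:**
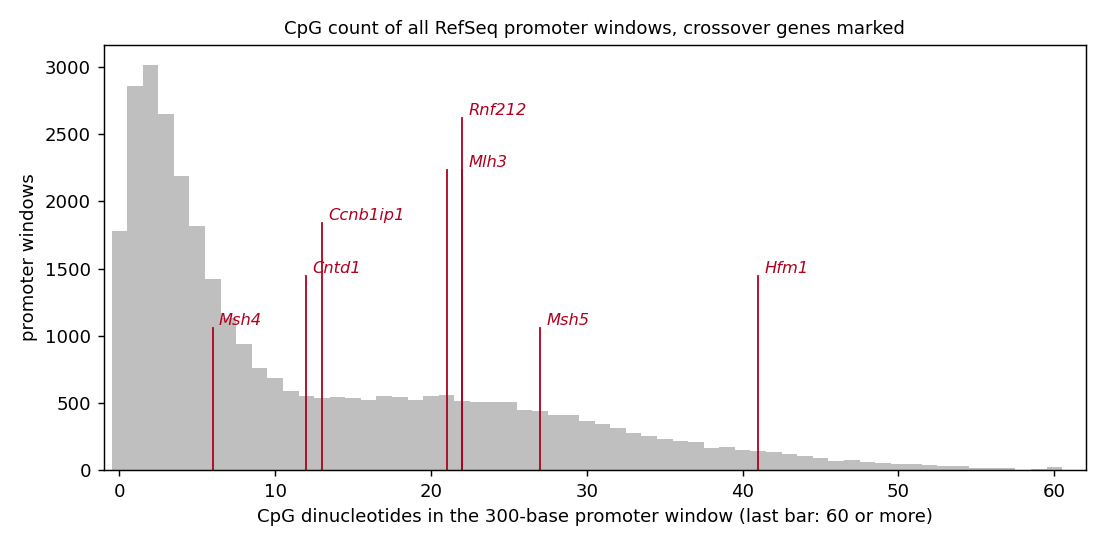
CpG dinucleotides per 300-base RefSeq promoter window (horizontal axis) and number of windows (vertical axis, grey bars), with red lines for the crossover genes. Msh4, at 6 CpG, lies below the median of 7 over all windows, and Hfm1, at 41, has the most of the marked genes.

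The genotypes were compared at each stage with limma on log2(FPKM + 1) over all tested genes, with Benjamini-Hochberg adjustment and a threshold of 0.05. Differences are null minus WT on that scale, which understates the change of genes with low FPKM. Errors are limma standard errors with 2 libraries a group. Their variance is pooled over all 12 libraries and moderated, so a gene has the same error at each single stage. In pachytene none of the 7 genes passed, where 0.355% of all tested genes did. None of the 7 had an unadjusted limma p under 0.05, beside 1388 of the 12956 tested genes. All 7 had overlapping WT and null libraries in pachytene. The share of all tested genes whose libraries overlap was not counted, so overlap here and below is description only. The pachytene differences of the 7 ran from -0.24 for Cntd1 to 0.12 for Msh4, and the 95% intervals reached from -1.18 to 0.79. In diplotene none passed either, where 0.787% of all genes did. There 2 of the 7 had an unadjusted limma p under 0.05, beside 1747 of the 12956 tested genes. In meiosis II 1 of the 7 passed, Mlh3, which was lower in null cells, where 10.5% of all genes passed in either direction. At that stage 3 of the 7 had an unadjusted limma p under 0.05, beside 3385 of the 12956 tested genes. Averaged over the 3 stages 1 of the 7 passed, Msh4, which was higher, where 16.7% of all genes passed. The median difference over the 7 genes was -0.10 in meiosis II, beside 0.02 over all tested genes.

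**Figure D2:**
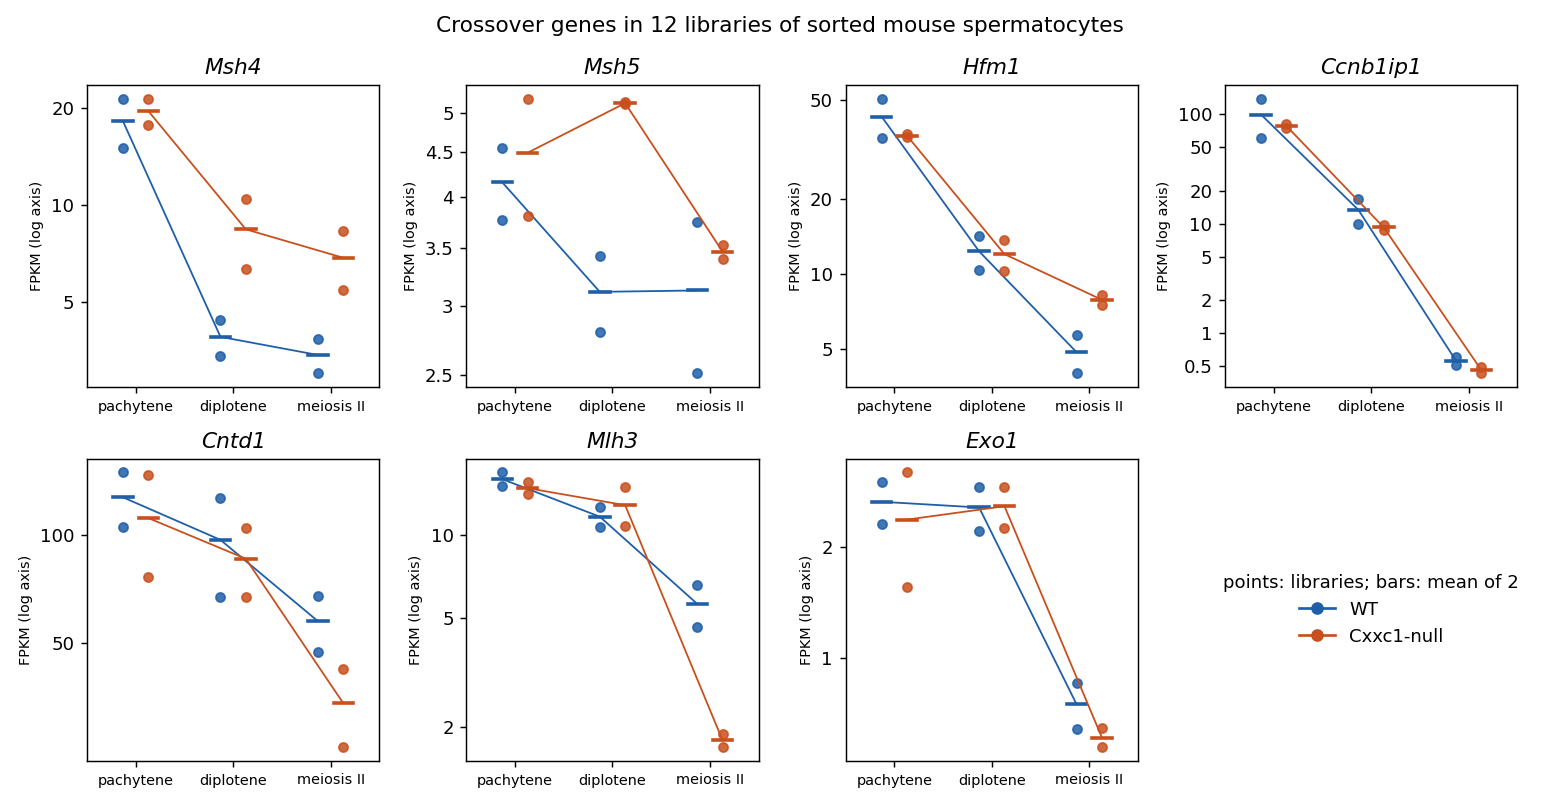
FPKM (vertical axes, logarithmic) of the 7 listed genes in pachytene, diplotene and meiosis II for WT (blue) and Cxxc1-null (orange). Points are single libraries and bars are means of 2. Mlh3 is at 4.64 and 6.59 FPKM in WT and at 1.70 and 1.89 in null meiosis II cells.

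Msh4, a subunit of the MutSgamma clamp, was the gene of the set that was higher in null cells. In WT it stood at 21.4 and 15.0 FPKM in pachytene, 4.38 and 3.38 in diplotene and 2.99 and 3.83 in meiosis II. In null cells it stood at 17.8 and 21.4, then 10.5 and 6.32, then 8.26 and 5.42. Both null libraries lay above both WT libraries in diplotene and in meiosis II, and the genotypes overlapped in pachytene. The limma difference averaged over stages was 0.62 ± 0.17 (adjusted p = 0.0381). At single stages it was 0.92 ± 0.30 in diplotene (limma adjusted p = 0.204) and 0.81 ± 0.30 in meiosis II (limma adjusted p = 0.119), so neither passed alone. The averaged call is not stable: it was lost in 14 of 21 alternatives, among them the omission of any 1 of 9 of the 12 libraries, with the difference between 0.51 and 0.66 in those 14.

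Msh5, the partner of Msh4 in the clamp, stayed between 2.51 and 5.19 FPKM in all 12 libraries. WT cells held 3.77 and 4.55 FPKM in pachytene, 3.42 and 2.80 in diplotene and 3.74 and 2.51 in meiosis II. Null cells held 5.19 and 3.81, then 5.14 and 5.11, then 3.53 and 3.40. In diplotene both null libraries were above both WT libraries, with a difference of 0.58 ± 0.23 that did not pass (limma adjusted p = 0.299). At the other stages the genotypes overlapped.

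Hfm1, the crossover helicase, was at 50.5 and 35.04 FPKM in WT pachytene cells, 14.3 and 10.4 in diplotene and 5.74 and 4.01 in meiosis II. In null cells it was at 35.4 and 36.4, then 13.8 and 10.3, then 8.29 and 7.51. The genotypes overlapped in pachytene and diplotene. In meiosis II both null libraries were above both WT libraries, by 0.61 ± 0.26, which did not pass (limma adjusted p = 0.173).

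Ccnb1ip1, a ubiquitin ligase that limits the number of designated sites, had the steepest course. WT cells held 139.2 and 60.1 FPKM in pachytene, 16.6 and 10.03 in diplotene and 0.605 and 0.512 in meiosis II. Null cells held 82.3 and 74.5, then 9.80 and 8.68, then 0.427 and 0.490. The null libraries lay below the WT libraries in diplotene and meiosis II, but by -0.45 ± 0.36 and -0.10 ± 0.36, neither of which passed (limma adjusted p = 0.666 and 0.905). In meiosis II its mean lay at percentile 6.86 of tested genes in WT and 4.54 in null cells.

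Cntd1, a cyclin-like factor needed for designation, was the most abundant of the 7 in each group. WT cells held 148.8 and 105.0 FPKM in pachytene, 126.1 and 67.3 in diplotene and 67.7 and 47.3 in meiosis II. Null cells held 146.2 and 76.1, then 104.4 and 67.0, then 42.4 and 25.7. In meiosis II both null libraries were below both WT libraries, by -0.76 ± 0.42, which did not pass (limma adjusted p = 0.288). Replicate 1 exceeded replicate 2 in all 6 groups.

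Mlh3, the resolving endonuclease subunit, was lower in null than in WT cells in meiosis II. In WT it stood at 15.0 and 16.9 FPKM in pachytene, 12.6 and 10.6 in diplotene and 6.59 and 4.64 in meiosis II. In null cells it stood at 14.0 and 15.5, then 14.9 and 10.7, then 1.89 and 1.70. The genotypes overlapped in pachytene and diplotene, and in meiosis II both null libraries were below both WT libraries, at 31.9% of the WT mean. The limma difference there was -1.23 ± 0.24 (95% interval -1.76 to -0.70, adjusted p = 0.0126). The mean fell from percentile 43.9 of tested genes in WT to 22.6 in null cells. The call was lost without meiosis II WT replicate 1 (-1.01, limma adjusted p = 0.0966), without null replicate 1 (-1.28, 0.0544) or without null replicate 2 (-1.18, 0.0763), and in a fit to the meiosis II libraries alone (-1.23, 0.0706). Fewer cells of a type and less RNA per cell cannot be told apart in sorted bulk RNA. Beside this result the sum of the round spermatid markers was lower in the null meiosis II libraries, mainly through the protamine and transition protein genes. The mean of Tssk6 was lower too, while those of Spaca1 and Tssk1 were not, as given above. Sertoli markers, carried by Clu and Cldn11, summed to 201 to 262 FPKM in WT and 185 to 195 in null meiosis II libraries, against 1.55 to 23.1 in the other groups, and Leydig markers to 47.4 to 267 against 99.1 to 185. Their part in the result was not tested.

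Exo1, the exonuclease, was low throughout. WT cells held 2.30 and 2.99 FPKM in pachytene, 2.90 and 2.21 in diplotene and 0.852 and 0.642 in meiosis II. Null cells held 3.18 and 1.56, then 2.91 and 2.24, then 0.643 and 0.572. The genotypes overlapped at pachytene, diplotene and meiosis II, with differences of -0.15 ± 0.25, 0.01 ± 0.25 and -0.12 ± 0.25.

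**Figure D3:**
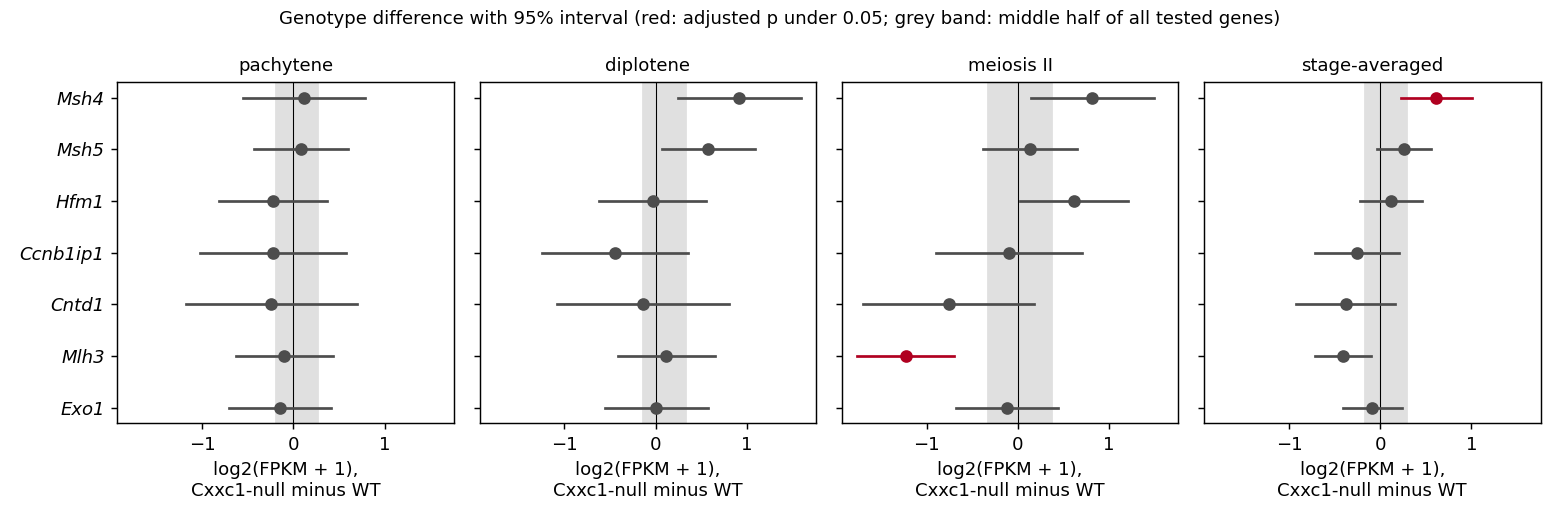
Null minus WT difference in log2(FPKM + 1) of the 7 listed genes at each stage and averaged over stages, with 95% intervals from limma. Mlh3 in meiosis II lies at -1.23 and Msh4 averaged over stages at 0.62, and these are the values that passed the threshold.

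Whether the genotype difference itself changed between stages was tested with limma's interaction F test. None of the 7 genes passed, where 0.054% of all tested genes did. Mlh3 had the lowest p of the 7 (limma adjusted p = 0.292). It alone of the 7 had an unadjusted limma p under 0.05, beside 1136 of the 12956 tested genes. The difference of its genotype effect between stages therefore did not pass its own test.

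The same genes were followed through meiosis within each genotype. From pachytene to diplotene 3 of 7 fell in WT, where 17.4% of all tested genes fell, and the same 3 fell in null cells, where 17.4% fell: Msh4, Hfm1 and Ccnb1ip1. The log2 change of Msh4 was -1.96 ± 0.30 in WT (limma adjusted p = 0.00244) and -1.16 ± 0.30 in null cells (adjusted p = 0.0191). That of Ccnb1ip1 was -2.73 ± 0.36 and -2.96 ± 0.36, which left 13.4% and 11.8% of its pachytene mean. That of Hfm1 was -1.70 ± 0.26 and -1.51 ± 0.26. From diplotene to meiosis II 4 of 7 fell in WT, where 18.9% of all genes fell, and 4 of 7 in null cells, where 18.8% fell. Mlh3, Ccnb1ip1 and Exo1 fell in both genotypes, with log2 changes of -0.95 ± 0.24, -3.16 ± 0.36 and -1.02 ± 0.25 in WT and of -2.29 ± 0.24, -2.81 ± 0.36 and -1.15 ± 0.25 in null cells. Hfm1 fell in WT, at -1.19 ± 0.26, and stood at -0.54 ± 0.26 in null cells (limma adjusted p = 0.129). Cntd1 fell in null cells, at -1.31 ± 0.42 (limma adjusted p = 0.0279), and stood at -0.69 ± 0.42 in WT (limma adjusted p = 0.211). Msh5 passed in none of these 4 comparisons, and no gene of the 7 rose. The 2 steps of a genotype share its diplotene libraries. The spermatid and Sertoli marker sums given above also differ between stages, and their part in these changes was not tested.

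The WT calls of Msh4, Hfm1 and Ccnb1ip1 from pachytene to diplotene held on leaving out any 1 library. They were lost when only the WT pachytene and diplotene libraries were fitted (limma adjusted p = 0.0647 to 0.0669), with the log2 changes as above; in that fit 3 genes of all tested passed, against 3431. Some other calls depend on single libraries. In WT from diplotene to meiosis II, Mlh3 lost its call without diplotene replicate 1 (-0.83) or meiosis II replicate 2 (-0.73), and Exo1 lost its call without diplotene replicate 1 (-0.88). In null cells Msh4 lost its first-step call without pachytene replicate 2 (-1.04) or diplotene replicate 2 (-0.84), and Hfm1 without pachytene replicate 2 (-1.49). Cntd1 lost its second-step call without diplotene null replicate 1 (-0.999) or meiosis II null replicate 2 (-0.96), and with no expression filter (limma adjusted p = 0.0508).

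**Figure D4:**
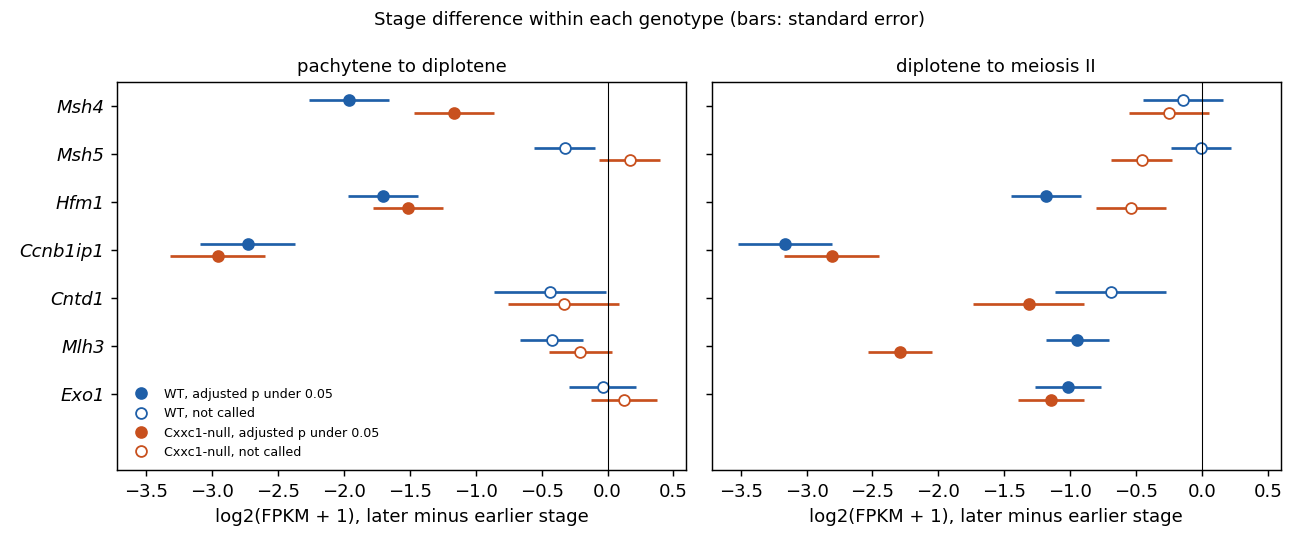
Change in log2(FPKM + 1) of the 7 listed genes from pachytene to diplotene and from diplotene to meiosis II, in WT and in Cxxc1-null cells, with standard errors from limma and filled points where the adjusted p was under 0.05. Ccnb1ip1 falls at both steps in both genotypes, with changes from -3.16 to -2.73.

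In the order of group means, Msh4 ran from null pachytene (19.6 FPKM) and WT pachytene (18.2), which overlapped, through null diplotene (8.39) and null meiosis II (6.84), which overlapped, to WT diplotene (3.88) and WT meiosis II (3.41), which overlapped. Mlh3 ran from WT pachytene (15.9) through null pachytene (14.8), null diplotene (12.8) and WT diplotene (11.7), each overlapping the next, to WT meiosis II (5.62) and null meiosis II (1.79), which stood apart from each other and from the rest. For Hfm1 the lowest mean was that of WT meiosis II (4.87), with null meiosis II (7.90) next above it and not overlapping.

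The genes whose pattern over the 12 libraries was most like each of the 7 were found by Pearson r on log2(FPKM + 1). They were Sgol1 (r = 0.97), Prpf18 (0.96) and Tmem159 (0.96) for Msh4, and Cat (0.89), Trmt12 (0.86) and 6330416G13Rik (0.86) for Msh5. For Mlh3 they were Pcgf6 (0.99), Kif15 (0.98) and Pldn (0.98), and for Hfm1 Asz1, Ythdc2 and Kdm5a (0.995, 0.994 and 0.993). Ccnb1ip1 was most like Sumo2, 4930524B15Rik and Ccndbp1 (0.997, 0.996 and 0.995). Cntd1 was most like Rbm46 (0.98), 4933425L06Rik (0.97) and 2900097C17Rik (0.97), and Exo1 most like Tmem106c, Ruvbl1 and Mks1 (each 0.98). Many genes share such a course: 1391 tested genes exceeded r = 0.9 with Ccnb1ip1, 1157 with Hfm1 and 502 with Mlh3. For Exo1 the count was 356, for Msh4 221, for Cntd1 131 and for Msh5 0. These are descriptions over libraries that share stages.

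Of the other factors of the same crossover class, 9 are described here, of which 7 were listed and tested. From pachytene to diplotene 4 of these 7 fell and 1 rose in WT, where 17.4% of all tested genes fell and 9.08% rose. In null cells 5 fell and 1 rose, where 17.4% fell and 11.9% rose. The gene that rose was Prr19, which acts with Cntd1 in designation. It stood at 6.43 and 32.6 FPKM in WT pachytene and 56.3 and 69.5 in WT diplotene cells, and at 10.7 and 10.6 and then 70.3 and 65.5 in null cells. The WT pachytene libraries lay far apart: the log2 change of Prr19 was 2.01 ± 0.57 (limma adjusted p = 0.0272), 3.10 without pachytene WT replicate 2, and 0.92 without replicate 1, where it did not pass (limma adjusted p = 0.139). From diplotene to meiosis II 1 gene rose and 1 fell in WT, where 26.1% of all genes rose and 18.9% fell. In null cells 2 rose and 2 fell, where 25.3% of all genes rose and 18.8% fell. Cdk2, the kinase found at crossover sites, fell from a mean of 71.1 to 14.1 FPKM in WT and from 62.5 to 8.37 in null cells. Tex11, a synapsis and crossover factor, rose from 0.101 to 0.728 FPKM in WT and from 0.178 to 1.14 in null cells. In null cells Mcm8, a recombination helicase, also rose (1.29 to 3.15 FPKM) and 6030422M02Rik (Mcmdc2) fell (4.05 to 1.62 FPKM). The Mcm8 call was lost without diplotene null replicate 1 (log2 change 0.75) or meiosis II null replicate 1 (0.78) or 2 (0.94). That of Mcmdc2 was lost on leaving out any null library (-1.01 to -0.89).

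None of the 6 structure-selective resolution genes (Mus81, Eme1, Eme2, Slx4, Slx1b and Gen1) passed in a genotype comparison. At single stages and averaged over them, 0.355% to 16.7% of all tested genes passed. From pachytene to diplotene 2 of the 6 rose in WT, the nuclease subunit Mus81 (log2 change 1.23 ± 0.30) and the scaffold Slx4 (0.95 ± 0.29), and Gen1, a Holliday junction resolvase, fell (-1.12 ± 0.17). Of all tested genes 9.08% rose and 17.4% fell at this step in WT. In null cells Slx4 rose (1.001 ± 0.29) and Gen1 fell (-0.78 ± 0.17), where 11.9% of all genes rose and 17.4% fell. In WT the changes of Mus81 and Slx4 were 0.73 and 0.54, with no call, without pachytene WT replicate 1. Both calls were also lost without diplotene WT replicate 1 (1.29 and 1.15) or 2 (1.17 and 0.74), and that of Slx4 without either WT meiosis II library. The null call of Slx4 was lost without pachytene null replicate 2 (0.81) or diplotene null replicate 1 (1.14) or 2 (0.86). That of Gen1 was lost without pachytene null replicate 2 (-0.68) or diplotene null replicate 1 (-0.78). From diplotene to meiosis II 1 of the 6 rose (Gen1) and 3 fell (Eme1, Eme2 and Slx1b) in WT, where 26.1% of all genes rose and 18.9% fell. The WT call of Gen1 was lost on leaving out any library of the groups compared (log2 change 0.53 to 0.57). Those of Eme1 and Eme2 were lost without diplotene WT replicate 2 (-0.82 and -0.98) or meiosis II WT replicate 1 (-0.70 and -0.76). In null cells 1 of the 6 fell, where 18.8% of all genes fell.

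Of 9 tested genes of dissolution and anti-crossover helicases, 1 was lower in null meiosis II cells, where 4.35% of all tested genes were lower: Top3a, the topoisomerase that works with Blm. It stood at 7.42 and 6.57 FPKM in WT and 3.32 and 2.21 in null cells, a difference of -1.10 ± 0.31 (limma adjusted p = 0.0485), and lost its call on leaving out any 1 of 10 of the 12 libraries. None of the 5 other mismatch repair genes passed in a genotype comparison, where 0.355% to 16.7% of all tested genes did. Within each genotype 3 of those 5 fell from pachytene to diplotene, beside the 17.4% of all genes that fell. Msh6 was among them, from 16.0 to 8.53 FPKM in WT and from 15.4 to 8.35 in null cells. Its call was lost in each genotype on leaving out any library of the groups compared. The log2 changes of Msh6 were then -0.88 to -0.78 in WT and -0.96 to -0.68 in null cells. From diplotene to meiosis II Pms1 rose in both genotypes, from 0.398 to 0.995 FPKM in WT and from 0.645 to 1.33 in null cells. The WT call of Pms1 was lost on leaving out any library of the groups compared (log2 change 0.42 to 0.60). Its null call was lost without diplotene null replicate 1 (0.63) or 2 (0.37), meiosis II null replicate 2 (0.38), or either WT diplotene library.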

How the data were processed

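Spermatocyte RNA was amplified by Smart-seq2 with oligo-dT priming, per the labels' protocols. The authors deposited 1 table of FPKM per gene for 12 libraries; the submitters' processing notes name TopHat2 2.1.1, Cufflinks 2.2.1 and mm9 without their roles. Depth is not given, so no count test was run. From the FPKM, the 12956 genes that reached 1 FPKM in 2 or more libraries were kept and log2(FPKM + 1) was fitted with limma 3.58.1 in R 4.3.3, a mean per group over all 12 libraries, 6 residual degrees of freedom, a variance trend and Benjamini-Hochberg adjustment over all tested genes at 0.05. The procedure was run on normal data simulated from limma's own fitted means and variances, a run that cannot check that model itself. Genes named are the 8 members, list genes that passed or the most abundant of their list, and the 3 most alike in pattern. The members and lists were chosen with earlier results of these data known. A gene of the fixed class I crossover list is not reported here, so that list's counts leave it out and no count of its genotype calls is given. Mcmdc2 and Rmi2 were matched by RefSeq synonyms. The 8 H3K4me3 libraries were not analysed here.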

Additional observations from a re-analysis of the deposited data

How the results depend on the processing

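There were 22 alternative settings, 9 of which kept all libraries, and each result had a value under 19 to 21 of them. Over 63 results for single genes and 1307 values, 1269 kept their side of the threshold, 31 lost a call and 7 gained one. No called value changed sign; 42 values uncalled in both fits did, and they were not counted as reversals. The number of the 7 genes called in meiosis II went from 1 to 0 in a separate fit and to 2 with a replicate block, and ranged from 0 to 1 on leaving out 1 library. Averaged over stages it went from 1 to 2 with a pseudocount of 0.1 and with the replicate block, to 0 with no expression filter, a common median, stages joined by replicate number, or both libraries left out that earlier results place apart (WT pachytene replicate 2 and null diplotene replicate 2), and ranged from 0 to 1 on leaving out 1 library. From WT pachytene to diplotene it went from 3 to 0 in the separate fit. Leaving out 1 library gave 2 to 4 from WT diplotene to meiosis II and 1 to 3 from null pachytene to diplotene. The cause was not tested. Leaving out each library in turn was also applied to the 47 calls of genes of the other lists, a choice made after seeing the data, and 30 were lost on leaving out at least 1 library.

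The replicate block added Cntd1 in meiosis II (-0.76, limma adjusted p = 0.0229), averaged (-0.38, 0.0286, but 0.546 with stages joined by replicate number) and from WT diplotene to meiosis II (-0.69, 0.0093), and Hfm1 from null diplotene to meiosis II (-0.54, 0.048). The replicate numbers do not pair the libraries by the labels, and deviations of same-numbered libraries correlated at -0.253 to 0.42 over 15 pairs of groups, with 11 over 0.1. Another scaling moved the median of all genes by up to -0.297, from WT diplotene to meiosis II. With 2 libraries a group and unknown depth, the precision for small differences is limited.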

Other observations

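Ratios of FPKM within a library do not change when each library is scaled by a single factor, though quantile normalization can change them. These ratios were chosen after the values were seen and carry no test. Hfm1 to Mlh3 was 0.87 and 0.864 in the 2 WT meiosis II libraries and 4.39 and 4.43 in the null ones. In diplotene it was 1.13 and 0.979 in WT and 0.924 and 0.961 in null cells, and in pachytene it ran from 2.08 to 3.37 over both genotypes. Msh4 to Mlh3 was 0.453 and 0.825 in WT and 4.37 and 3.19 in null meiosis II cells. In diplotene it was 0.346 and 0.318 in WT and 0.702 and 0.589 in null cells. Cntd1 to Ccnb1ip1 rose across stages in both genotypes, from 1.02 to 1.78 in pachytene through 6.71 to 10.7 in diplotene to 52.5 to 112 in meiosis II. The meiosis II ratios rest on Ccnb1ip1 levels of 0.427 to 0.605 FPKM, under the 1 FPKM of the expression filter.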
